A study of Homo sapiens with 12 samples.

Results

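The squamous lineage transcription factors described here are 10 genes, chosen by symbol from the 58174 genes of the expression table. They are SOX2, TP63, TP73, PITX1, GRHL1, GRHL2, BCL11A, TFAP2A, TFAP2C and ZNF750. Their mRNA was measured in H520, a human cancer cell line derived from a squamous carcinoma of the lung (LUSC). Of the 12 libraries, 3 came from control cells, 3 from cells given BLU9931 at 1 µM, 3 from cells given palbociclib at 1 µM and 3 from cells given both drugs (the combination). Treatment lasted 72 h. BLU9931 blocks the FGF receptor FGFR4. Palbociclib blocks CDK4 and CDK6, the kinases that phosphorylate RB and so free E2F transcription factors. The labels give neither the control treatment nor whether the 3 libraries of a group are separate cultures, so p-values may measure technical spread only. All values are from a single cell line.

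In stratified epithelia such as the airway, a small set of transcription factors sets basal and squamous identity. TP63 encodes p63, the master regulator of basal cells. SOX2 encodes an HMG-box factor that acts with p63 in squamous carcinomas, and both genes lie on the long arm of chromosome 3, in a region often gained in these tumours. TP73 encodes p73, a relative of p53 and p63 with an upstream promoter for full-length forms and an internal one for forms without the activation domain. PITX1 is a homeobox factor, BCL11A a zinc-finger repressor that has been described as a partner of SOX2 in squamous lung tumours, and TFAP2A and TFAP2C are AP-2 factors of the ectoderm. GRHL1 and GRHL2 are grainyhead-like activators of epithelial junction genes, and ZNF750 is a p63 target that drives late epidermal differentiation.

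Promoter windows were in the RefSeq table for 7 of the 10 factors, as 14 windows of 300 bases on GRCh38.p14, each from 250 bases before to 50 bases after an annotated start. Of these, 2 of the TP73 windows, the factor that changed most below, and the window of SOX2, the most abundant, are shown. Capitals mark the E2F letters searched for (TTTGGCGC or TTTCCCGC, both strands), and the 3 windows shown read along the + strand.

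TP73, upstream start, chr1:3652266-3652565: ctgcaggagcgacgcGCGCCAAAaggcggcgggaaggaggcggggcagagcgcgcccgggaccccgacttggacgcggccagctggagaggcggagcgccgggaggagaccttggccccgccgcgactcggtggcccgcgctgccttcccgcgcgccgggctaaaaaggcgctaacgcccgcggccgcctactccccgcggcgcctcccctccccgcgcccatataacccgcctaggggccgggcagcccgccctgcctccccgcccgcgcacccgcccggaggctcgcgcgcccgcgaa
TP73, internal start, chr1:3690422-3690721: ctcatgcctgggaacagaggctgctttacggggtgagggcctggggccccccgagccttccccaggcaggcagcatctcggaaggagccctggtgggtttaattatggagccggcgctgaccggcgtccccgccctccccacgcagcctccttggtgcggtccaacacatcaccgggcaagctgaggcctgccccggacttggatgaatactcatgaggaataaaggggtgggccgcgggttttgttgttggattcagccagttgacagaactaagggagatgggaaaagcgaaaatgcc
SOX2, chr3:181711675-181711974: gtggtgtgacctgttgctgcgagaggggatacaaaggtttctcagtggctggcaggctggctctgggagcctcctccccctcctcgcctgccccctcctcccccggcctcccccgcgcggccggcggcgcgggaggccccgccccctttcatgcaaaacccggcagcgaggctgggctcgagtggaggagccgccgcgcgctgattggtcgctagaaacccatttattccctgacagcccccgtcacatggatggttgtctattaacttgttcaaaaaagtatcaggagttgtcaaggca

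The letters TTTGGCGC were found in 1 of the 14 windows, at the upstream start of TP73. The match is on the opposite strand, begins 235 bases before the start (position -235) and overlaps no other motif searched. Over all 35116 windows of the table, 0.652% held these letters and 1.63% held TTTCCCGC, which none of the 14 did. The SOX2 window held 1 GC box (GGGCGG, found in 45% of all windows), 1 AP-2 match (GCCNNNGGC, 23.2%) and 1 SOX match (ACAAAG, 16.1%). Neither grainyhead form (AACCGGTT, or the wider AACCNGTT that includes it) was in any of the 14 windows. A match of letters is a description of the window and not a measured site.

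The total count ranged from 21.7 M (M, mega) to 35.8 M per library. Control 1 and palbociclib 3 stood apart from the other libraries: how far a gene lay from the other libraries of its group followed GC content across 13935 genes, with Spearman's rho of -0.781 and -0.832. The other control and palbociclib libraries, each set against a mean that included control 1 or palbociclib 3, had rho of 0.625 to 0.735. Combination 1, 2 and 3 had -0.342, -0.358 and 0.541, and BLU9931 libraries -0.146 to 0.0716. The main differences of the 6 more abundant factors are therefore also given without control 1 and palbociclib 3. The longest annotated transcripts of PITX1 and TP73 are GC-rich (68.9% and 61.0%, against a median of 48.4% for tested genes), and only 0.6% of tested genes exceeded PITX1. Among squamous and basal genes, 13 of 27 had a median above 1 TPM, a level scaled for transcript length and library depth. In every library, 10 stayed below it. The squamous and basal sum was 195 to 215 TPM in control and 197 to 217 with BLU9931. With palbociclib it was 186 to 204, and in the combination 210 to 233. KRT6B and KRT17, keratins of squamous cells, were listed at 0 throughout, and both have near-identical copies among which counting could split reads. The basal keratin KRT5 averaged 0.078 TPM in control libraries, KRT14 0.0131, and KRT15 3.30. The squamous keratins named here were thus listed at or near 0 apart from KRT15, whereas the basal integrins ITGA6 and ITGB4 averaged 57.7 and 20.5 TPM. The level of KRT6A, a further keratin of the list, is not reported here. Among markers of other cells, 6 of 10 neuroendocrine genes had a median above 1 TPM, with NEUROD1 at most 0.0539. Their summed level was 315 to 336 TPM in control, 390 to 423 with BLU9931, 559 to 621 with palbociclib and 713 to 733 in the combination, most of it CHGB. It moved with the groups, and its part in the results below was not tested. Of 12 lung glandular genes, 4 had a median above 1 TPM, chiefly FOXA2, while HNF4A and SCGB1A1 were listed at 0. The glandular sum was 56.0 to 81.2 TPM in control, 92.3 to 96.6 with BLU9931, 68.5 to 108 with palbociclib and 86.8 to 105 in the combination. Of 8 leukocyte genes, 1 (LYZ, lysozyme) had a median above 1 TPM and 4 stayed below it in every library. Their sum also moved with the groups, from 2.09 to 2.94 TPM in control and 1.90 to 2.92 with BLU9931 to 3.86 to 4.73 with palbociclib and 5.83 to 6.17 in the combination, where LYZ averaged 3.35 TPM. PTPRC, the pan-leukocyte gene, was at most 0.0237 TPM. Of 8 fibroblast genes, 1 had a median above 1 TPM, and their sum was 2.41 to 5.19 TPM in control, 5.46 to 6.37 with BLU9931, 2.98 to 4.78 with palbociclib and 2.16 to 3.43 in the combination, with COL3A1 at most 0.0188. The part of these 3 lists in the results was not tested either.

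Levels between genes are compared in TPM. The factors fell into 3 tiers. SOX2 was highest, with 361 ± 20.5 TPM in control libraries (SD, n = 3), and 237 protein-coding genes (1.2%) were higher. PITX1 followed at 114 ± 60.1 and TFAP2A at 55.5 ± 3.9 TPM. PITX1 was above TFAP2A within each of the 12 libraries, although its lowest control value (57.0) lay within the control range of TFAP2A (51.2 to 58.7). The middle tier held TP73 (8.16 ± 3.25 TPM), BCL11A (6.90 ± 0.999) and GRHL1 (4.88 ± 0.327), where the control range of TP73 overlapped both others and BCL11A was above GRHL1 in all 3 control libraries. The remaining 4 factors were near the detection limit in every group.

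**Figure D1:**
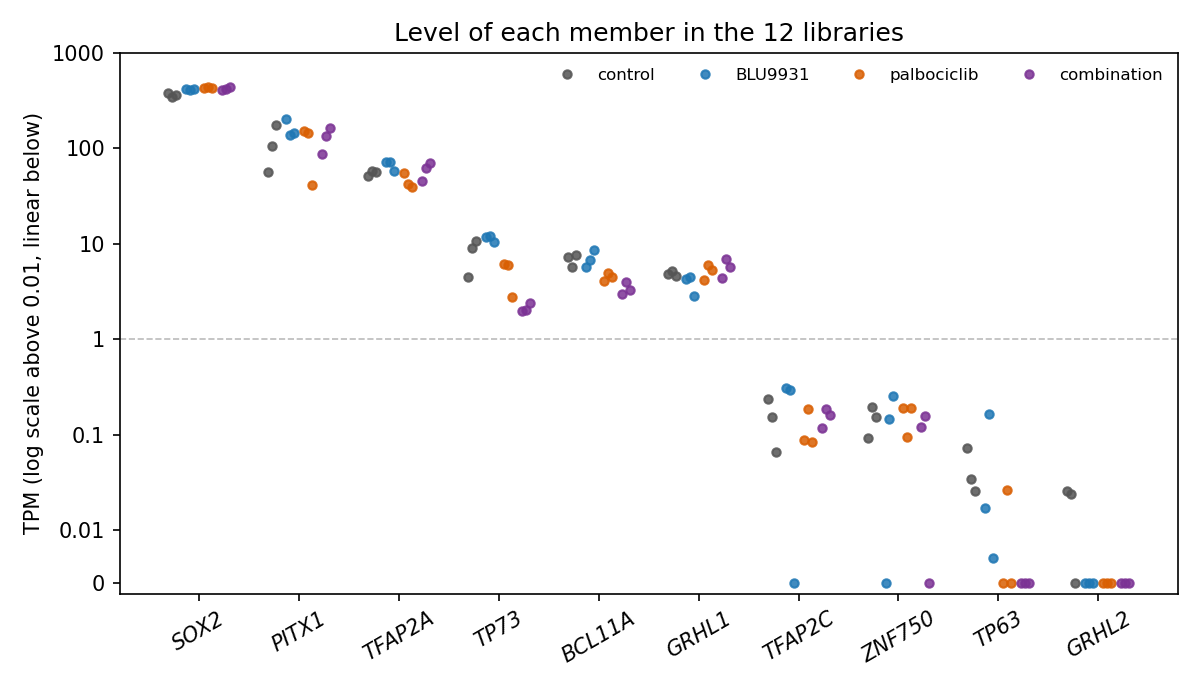
TPM of the 10 factors (x axis, by mean level) in each of the 12 libraries, coloured by group, on a y axis that is logarithmic above 0.01 and linear below; the dashed line is 1 TPM. SOX2, PITX1, TFAP2A, TP73, BCL11A and GRHL1 lie above 1 TPM in every library, and TFAP2C, ZNF750, TP63 and GRHL2 below it.

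TP63 (chr3:189631416-189897279 on GRCh38, + strand) was almost silent. Its 3 control libraries held 6, 3 and 3 counts, those with BLU9931 2, 2 and 1, those with palbociclib 0, 1 and 0, and those with the combination 0 each. A count of 0 allows up to 3 counts, which was between 0.0848 and 0.136 CPM (counts scaled to the library's total and TMM factor) depending on the library, so presence below that level was not detectable. The gene did not pass the filter on low counts and was not tested in the fit reported here. With that filter removed, edgeR's quasi-likelihood test gave the combination against control a Benjamini-Hochberg adjusted p of 0.0369, which rests on 12 counts against 0.

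GRHL2 had 2, 2 and 0 counts in the control libraries and 0 in the 9 treated ones, and it was not tested either. ZNF750 reached at most 14 counts and 0.255 TPM, and TFAP2C at most 14 counts and 0.31 TPM. Both were tested and passed the threshold in none of the 6 comparisons. The 95% intervals of their log2 changes were wide, from -2.82 to 1.28 for ZNF750 and from -1.86 to 1.70 for TFAP2C in the combination against control. ZNF750 lies wholly within TBCD on the opposite strand, which averaged 55.0 TPM in control libraries. The use of strand in counting is not given in the sources used here, so a few ZNF750 counts cannot be told apart from TBCD.

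BLU9931 alone moved none of the factors past the threshold. Of the 8 tested, 0 had an adjusted p under 0.05 in edgeR's quasi-likelihood test with Benjamini-Hochberg adjustment, where 0.18% of the 20612 genes tested did. At an unadjusted p under 0.05 there was 1 (SOX2), and DESeq2 and limma gave 0. The median log2 change of the 8 was 0.21, against 0.00 over all tested genes.

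Palbociclib alone also left 0 of 8 past the threshold by edgeR, although 20.6% of all tested genes passed. At an unadjusted p under 0.05 there were 4 (SOX2, TP73, BCL11A and TFAP2A). DESeq2 passed 3 of them (TP73, BCL11A and SOX2) and limma on log2 TPM passed 1 (SOX2). The median log2 change was -0.33, against 0.01 over all genes. None of these values shows that a factor did not respond to palbociclib.

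With both drugs, TP73 and BCL11A fell and no factor rose, 2 of 8 against 31.7% of all tested genes. A share of this size is near the background, and the median of the 8 was -0.05 against 0.03 over all genes. Adding BLU9931 to palbociclib lowered TP73 alone, 1 of 8 against 3.82% of all genes, with a median of 0.13 against 0.00. Adding palbociclib to BLU9931 lowered TP73 and BCL11A, 2 of 8 against 27% of all genes, with a median of -0.50 against 0.03. The comparisons with a common group share its libraries and are not independent. The interaction, the departure of the combined log2 effect from the sum of the 2 single effects, passed for 0 of 8 by edgeR against 1.59% of all genes. It had 1 factor (TP73) at an unadjusted p under 0.05, 1 by DESeq2 (TP73) and 0 by limma. The median interaction of the 8 was -0.17, against -0.02 over all genes.

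**Figure D2:**
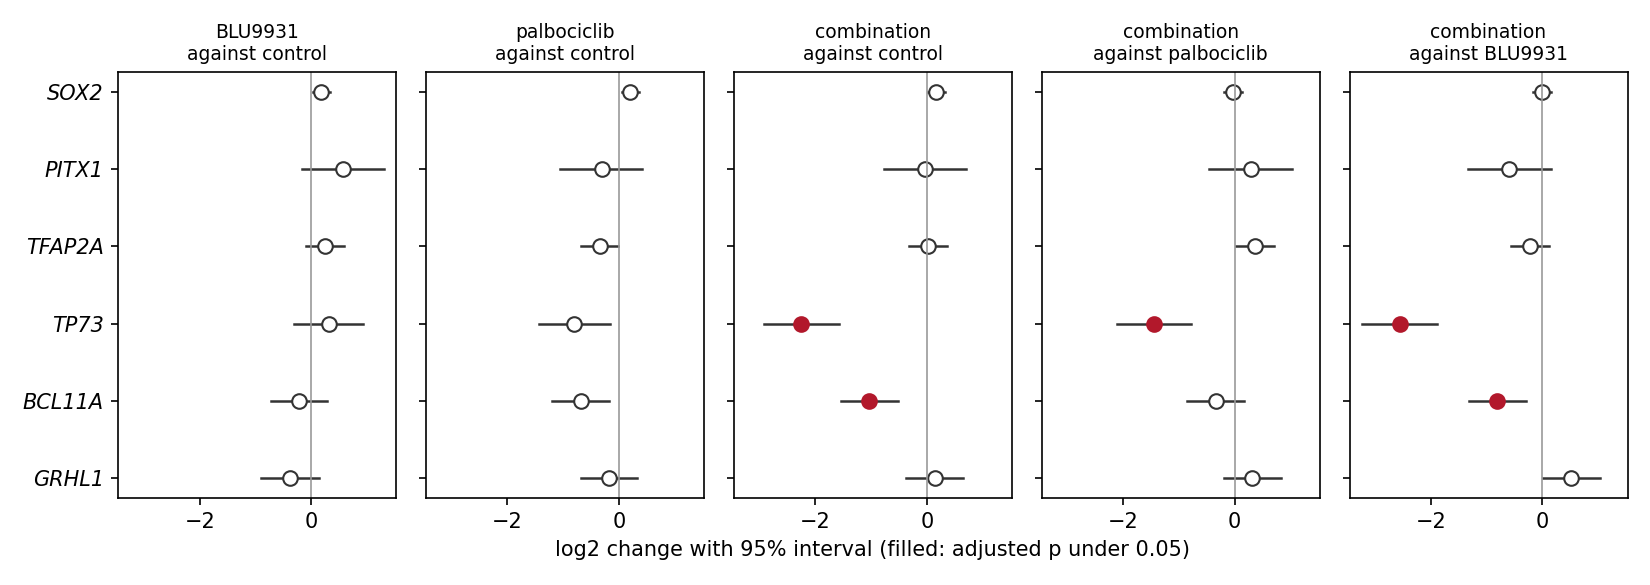
Log2 change (points) with 95% interval (lines) of the 6 factors above 1 TPM, in 1 panel for each of 5 comparisons between groups (the interaction is not drawn), from edgeR's quasi-likelihood fit; filled points have an adjusted p under 0.05. TP73 is filled in the 3 comparisons of the combination and BCL11A in 2 of them, while the narrow SOX2 intervals in these panels stay within 0.36 of 0.

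TP73 (chr1:3652520-3736201, + strand) was the factor that changed most. In control libraries 1 to 3 it had 11.6, 19.8 and 22.1 CPM, and with BLU9931 22.5, 23.1 and 20.8 CPM. With palbociclib it had 13.1, 11.4 and 6.22 CPM, and with the combination 3.53, 4.65 and 3.07 CPM. All 3 combination libraries lay below the other 9, palbociclib overlapped control only through control 1, and control overlapped BLU9931. The order of the group means was therefore BLU9931, control, palbociclib and combination, with neither BLU9931 and control nor control and palbociclib differing past the threshold.

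Against control, TP73 fell by 2.25 on the log2 scale with both drugs (SE 0.30, 4.75-fold lower, edgeR adjusted p = 0.000208), and 399 of the tested genes fell further. Against BLU9931 it fell by 2.56 (SE 0.31, adjusted p = 0.000101). Both falls passed in all 23 alternative settings. Against control the log2 change ranged over them from -2.50, without control 1 and palbociclib 3, to -1.17, with limma on log2(FPKM + 1), and against BLU9931 from -2.75 to -1.64. With palbociclib alone the change was -0.80 (SE 0.29), which missed the threshold (edgeR adjusted p = 0.0725). It passed without control 1 (-1.03, adjusted p = 0.0229), without control 1 and palbociclib 3 (-0.78, 0.00565), with the GC-content offset (-0.92, 0.0008) and with DESeq2 (-0.81, 0.0376), whereas without palbociclib 3 alone it was -0.53 (0.14). With BLU9931 alone the change was 0.31 (SE 0.28, edgeR adjusted p = 0.58).

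Adding BLU9931 to palbociclib lowered TP73 further, from a mean of 10.2 ± 3.58 to 3.75 ± 0.812 CPM (SD, n = 3 each), a fall by 1.45 on the log2 scale (SE 0.30, edgeR adjusted p = 0.0199). This call depended on single libraries and on the method. It was lost without combination 1 (adjusted p = 0.087), combination 3 (0.101), palbociclib 1 (0.0681) or palbociclib 2 (0.066), and it was kept without palbociclib 3 (0.0027) at a fall by 1.73 and without control 1 and palbociclib 3 (8.48e-05) at 1.72. With all libraries it was lost in the 3 limma settings, where the log2 change was -0.67, -0.87 and -1.10 (limma adjusted p = 0.202, 0.159 and 0.131), and with only the compared groups in the edgeR fit (adjusted p = 0.0901). The interaction was -1.76 (SE 0.41), with an unadjusted p of 0.00123 and an edgeR adjusted p of 0.0656. It passed without palbociclib 3 (-2.05, adjusted p = 0.00848) and without control 1 and palbociclib 3 (-1.80, 0.00108), and with all libraries by DESeq2 (-1.76, 0.00254) and with the GC-content offset (-1.51, 0.00192). The side of the threshold thus turned both on a library and on the method.

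The counts are per gene, so the full-length and truncated TP73 forms are not separated. TP73 overlaps WRAP73 by 242 bases and TP73-AS1 by 691 bases, both on the opposite strand and at 69.7 and 48.8 CPM in control libraries. Neither passed in the combination against control (log2 changes -0.35 and -0.46, edgeR adjusted p = 0.179 and 0.0891). The 4.75-fold fall of TP73 was therefore not shared at that size by the overlapping genes. In bulk RNA, fewer cells that express a gene and less of its RNA per cell cannot be told apart.

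The protein-coding genes whose profile over the 12 libraries was most like that of TP73, by root mean square difference of centred log2 CPM among 10889 genes, were UHRF1 (0.21), CDC20 (0.21) and PKMYT1 (0.22). UHRF1 maintains DNA methylation through replication, CDC20 activates the anaphase-promoting complex, and PKMYT1 is a kinase that restrains CDK1. From control to the combination, UHRF1 went from 108 ± 25.7 to 25.5 ± 0.0819 CPM and CDC20 from 352 ± 53.8 to 82.2 ± 5.94 CPM (SD, n = 3 each). They are named for likeness only, across libraries that share treatment and GC deviation.

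BCL11A (chr2:60451167-60553567, - strand) had 11.2, 9.82 and 12.1 CPM in control libraries and 9.29, 8.65 and 10.5 CPM with BLU9931. It had 6.80, 9.35 and 4.36 CPM with palbociclib, and 5.07, 6.11 and 5.0 CPM with the combination. The combination lay below every control and BLU9931 library, whereas palbociclib lay below control but overlapped the 2 other groups, with palbociclib 3 lowest of all 12.

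BCL11A fell by 1.03 on the log2 scale with both drugs against control (SE 0.23, 2.04-fold lower, edgeR adjusted p = 0.00582), a call that held in all 23 alternative settings, at log2 changes from -1.13 to -0.67 (-1.04 without control 1 and palbociclib 3). Against BLU9931 it fell by 0.81 (SE 0.23, adjusted p = 0.0236). This second call was lost without BLU9931 1 (adjusted p = 0.0554), BLU9931 3 (0.0803), combination 1 (0.077) or combination 3 (0.076), and without control 1 and palbociclib 3 it was kept (-0.83, 0.00183). With palbociclib alone the change was -0.69 (SE 0.23, edgeR adjusted p = 0.0559), and it passed without palbociclib 2 (-0.98, adjusted p = 0.0126), with DESeq2 (-0.70, 0.0262) and with the GC-content offset (-0.66, 0.0349). Without palbociclib 3 it shrank to -0.44 (0.0928), and without control 1 and palbociclib 3 to -0.45 (0.109). The combination did not differ from palbociclib past the threshold (-0.34, 95% interval -0.86 to 0.17, edgeR adjusted p = 0.558), nor without those 2 libraries (-0.59, 0.0621). The genes with the nearest profiles were KLHL29 (0.16), COPRS (0.17) and TCOF1 (0.18), the last a nucleolar factor of ribosome biogenesis. TCOF1 went from 192 ± 13.8 CPM in control libraries to 91.6 ± 6.04 CPM in the combination (SD, n = 3 each).

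**Figure D3:**
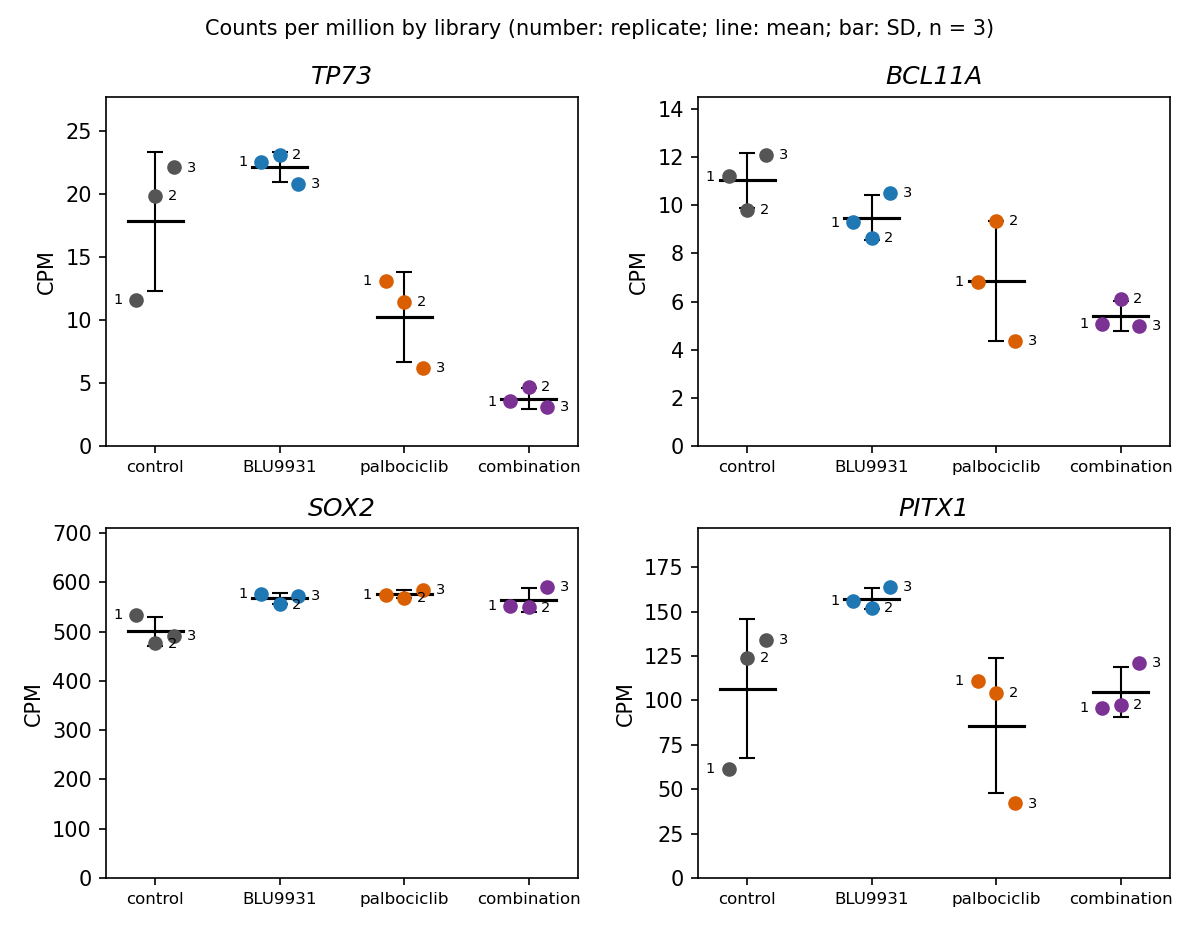
CPM of TP73, BCL11A, SOX2 and PITX1 by group; points are libraries with their replicate number, horizontal lines are means and bars are SD (n = 3). TP73 in the combination (3.07 to 4.65 CPM) lies below every other library, and PITX1 is lowest in control 1 (61.6) and palbociclib 3 (42.0).

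SOX2 (chr3:181711924-181714436, + strand) kept its high level under every treatment. Control libraries had 533, 476 and 492 CPM, BLU9931 576, 555 and 572, palbociclib 574, 569 and 585, and the combination 552, 549 and 591. Each of the 9 treated libraries was above the 3 control libraries, which all 3 comparisons share, and the 3 treatments overlapped one another.

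The log2 differences of SOX2 from control were small: 0.18 with BLU9931 (95% interval 0.03 to 0.34), 0.20 with palbociclib (0.05 to 0.36) and 0.17 with the combination (0.02 to 0.33). None passed after adjustment (edgeR adjusted p = 0.265, 0.0644 and 0.0852). Without control 1 and palbociclib 3, all 3 passed, at 0.24, 0.24 and 0.21 (adjusted p = 0.0446, 0.0104 and 0.00991), and without control 1 alone the palbociclib difference passed (0.26, adjusted p = 0.0337). Over the 23 alternative settings the difference passed in 1 for BLU9931, 8 for palbociclib and 6 for the combination, at 0.12 to 0.28. The SOX2 interaction was -0.21 (95% interval -0.43 to 0.01, edgeR adjusted p = 0.366), and without control 1 and palbociclib 3 it passed (-0.27, 0.0458). The combination differed from palbociclib by -0.03 (-0.19 to 0.13) and from BLU9931 by -0.01 (-0.17 to 0.15). The 95% intervals thus kept any difference of SOX2 between the combination and either single drug within 0.19 on the log2 scale.

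SOX2 lies wholly within SOX2-OT, a long noncoding RNA on the same strand, over 2513 bases. SOX2-OT had means of 15.7, 18.4, 24.8 and 37.5 CPM in control, BLU9931, palbociclib and the combination, and it rose with both drugs (log2 change 1.26, SE 0.22, edgeR adjusted p = 0.00124). It thus rose while the gene inside it differed by 0.17. Reads in the shared bases could be given to either gene, and how they were assigned is not given in the sources used here.

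PITX1 (chr5:135027735-135034813, - strand) had 61.6, 124 and 134 CPM in control libraries and 156, 152 and 164 CPM with BLU9931. With palbociclib it had 111, 104 and 42.0 CPM, and with the combination 95.7, 97.4 and 121 CPM. In CPM, BLU9931 was above all other libraries, whereas in TPM (205, 137 and 145) it overlapped each other group, with control 3 at 177. The lowest value of control and of palbociclib came from control 1 and palbociclib 3, the libraries that stood apart by GC content.

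No PITX1 difference passed in the edgeR fit to all libraries without a GC-content term, the log2 changes being 0.56 for BLU9931, -0.31 for palbociclib and -0.03 for the combination against control (edgeR adjusted p = 0.409, 0.564 and 0.965). Without control 1 and palbociclib 3, the combination against control was -0.32 (adjusted p = 0.0283) and against BLU9931 -0.61 (adjusted p = 0.000337), both past the threshold. In that fit palbociclib against control was -0.27 (edgeR adjusted p = 0.0981) and BLU9931 against control 0.30 (0.145), neither past it. Without palbociclib 3 alone, palbociclib against control was 0.02 (edgeR adjusted p = 0.966). With a GC-content offset in the fit to all libraries, 3 differences passed: palbociclib against control at -0.62 (edgeR adjusted p = 1.02e-05), the combination against control at -0.45 (6.9e-05) and the combination against BLU9931 at -0.42 (0.000114). BLU9931 against control went to -0.02 (0.887). The combination against BLU9931, -0.59 with all libraries (adjusted p = 0.226), also passed with only those groups in the fit (-0.61, 0.00133). The direction against control depended on the setting. In the 3 limma settings, the combination against control was 0.29, 0.28 and 0.27 (limma adjusted p = 0.696, 0.71 and 0.711). With single libraries left out it was -0.32 to 0.18 and did not pass. Against BLU9931, limma gave -0.36 each time (limma adjusted p between 0.636 and 0.651). PITX1 overlaps C5orf66 on the opposite strand by 1534 bases.

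TFAP2A (chr6:10393186-10419659, - strand) had 54.1, 57.5 and 58.3 CPM in control libraries and 72.2, 71.4 and 57.6 CPM with BLU9931. With palbociclib it had 52.2, 39.3 and 41.6 CPM, and with the combination 47.0, 58.4 and 66.8 CPM. Palbociclib was below every control library in CPM, but in TPM palbociclib 1 (55.8) was above control 1 (51.2). The combination overlapped all other groups. On the opposite strand, TFAP2A overlaps TFAP2A-AS1 by 7107 bases and TFAP2A-AS2 by 3427 bases. Palbociclib against control gave -0.35 (95% interval -0.69 to -0.01, edgeR adjusted p = 0.137), and the combination against palbociclib 0.37 (0.03 to 0.71, adjusted p = 0.269). Without control 1 and palbociclib 3 these were -0.34 and 0.32 (edgeR adjusted p = 0.201 and 0.287).

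GRHL1 (chr2:9951693-10002277, + strand) had 9.04, 9.37 and 8.01 CPM in control libraries and 7.97, 7.02 and 5.25 CPM with BLU9931. With palbociclib it had 7.57, 10.4 and 5.33 CPM, and with the combination 8.24, 10.6 and 10.2 CPM. BLU9931 lay below both control and the combination, by narrow margins. The combination against BLU9931 gave 0.52 (95% interval 0.01 to 1.04, edgeR adjusted p = 0.126) and against control 0.14 (-0.37 to 0.65, adjusted p = 0.692). Without control 1 and palbociclib 3 these were 0.50 and 0.14 (edgeR adjusted p = 0.0522 and 0.622), and palbociclib against control went from -0.18 to 0.05. TFAP2A and GRHL1 passed in none of the alternative settings of any comparison.

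Companion lists place these values beside genes of the same families and programmes, described by counts without a test of the list; genes named for a small count were chosen after their values were seen. Of 17 related transcription factors, 13 were tested, and 4 rose (SOX4, SOX9, SOX21 and GRHL3) and 4 fell (among them BCL11B, FOXE1 and KLF5) in the combination against control, with a median log2 change of 0.23. Over all tested genes 31.7% passed in this comparison, with 3175 higher and 3358 lower of 20612 and a median of 0.03. BCL11B, the paralogue of BCL11A, fell by 1.35 (SE 0.20, edgeR adjusted p = 0.000385), and with palbociclib alone by 0.90 (adjusted p = 0.00768). Both BCL11 genes thus fell with both drugs. SOX21 rose by 0.94 (SE 0.14, edgeR adjusted p = 0.000311), and SOX9 rose with palbociclib alone by 0.81 (SE 0.09, adjusted p = 0.000114). GRHL3, the third grainyhead-like gene, rose at a low level, from a mean of 0.197 to 0.983 TPM (edgeR adjusted p = 0.00915). FOXE1, a forkhead factor, fell by 0.93 (adjusted p = 0.00185).

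Of 27 squamous and basal genes, 19 were tested, and 7 rose and 1 fell (DSC3, a desmosomal cadherin) in the combination against control (median 0.65, against 0.03 over all tested genes, of which 31.7% passed). The neurotrophin receptor gene NGFR rose by 1.88 (edgeR adjusted p = 8.07e-05) and the keratin gene KRT15 by 1.70 (adjusted p = 5.23e-05). Of 22 differentiation genes, 11 were tested, and 3 rose (KRT13, SBSN and PPL) and 1 fell (median 0.40), a share near the 31.7% of all tested genes. The one that fell was PRDM1, a transcriptional repressor that acts in terminal differentiation, by 1.19 (edgeR adjusted p = 9.35e-05). TP63 and ZNF750, known regulators of such programmes, were near 0 in all 12 libraries, and their part in these changes was not tested.

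Of 15 epithelial genes known to be bound by GRHL factors, 13 were tested, and 2 rose and 4 fell (among them EPCAM, ESRP1 and MARVELD3) in the combination against control (median 0.35, again against 31.7% of all tested genes passing). ELF3, an ETS factor of epithelia, rose by 1.48 (edgeR adjusted p = 3.28e-05) and the E-cadherin gene CDH1 by 0.82 (adjusted p = 0.00155). EPCAM fell by 0.66 (adjusted p = 0.00759), while GRHL1 itself had a log2 change of 0.14. Of 27 neighbours of SOX2 and TP63 on chromosome 3, 26 were tested, and 2 rose (SOX2-OT and MCCC1) and 9 fell (median -0.27), beside the same 31.7%. The G-protein subunit gene GNB4 fell by 1.78 (edgeR adjusted p = 4.84e-05) and ECT2, which drives cytokinesis, by 1.03 (adjusted p = 0.000551). Of the 37 companion genes past the threshold in this comparison, 24 kept their call in all 23 alternative settings. With 1 library left out, 12 lost the call, among them SOX4, DSC3, PPL and ESRP1. KRT6A and TRIM29, squamous and basal genes that rose, also lost it.

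**Figure D4:**
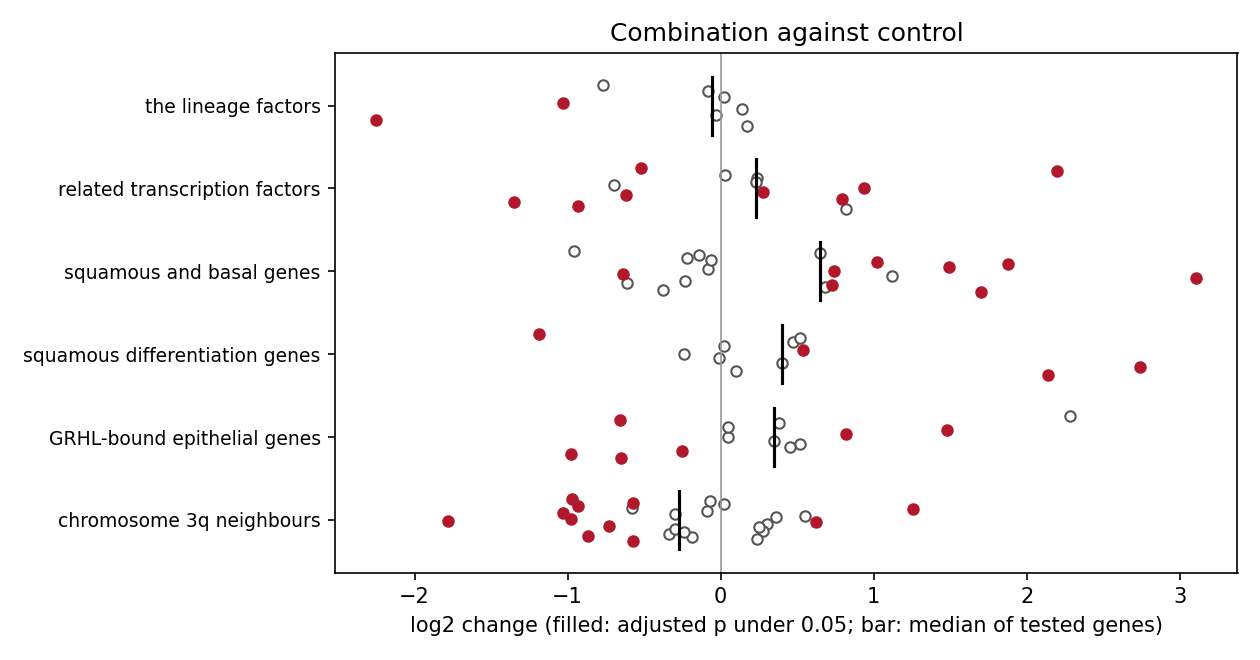
Log2 change in the combination against control (x axis) for each tested gene of the lineage factors and of 5 companion lists (y axis); filled points have an edgeR adjusted p under 0.05 and the bar is the list's median. The lineage factors centre near 0 with TP73 and BCL11A to the left, and the chromosome 3 neighbours hold 9 of their 11 filled points to the left.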

How the data were processed

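Per the file headers, the deposited table gives counts, TPM and FPKM for every gene in every library. The counts were deposited as whole numbers. Per the submitters' processing notes, the tools were HISAT2 2.0, StringTie 1.3.3b, Trimmomatic 0.36 and bedtools 2.26.0. These notes list the mouse build mm9, although the gene IDs are human: of 58174, GENCODE 29 holds 57836, and 56044 match it in start and end, so positions are on GRCh38. Which tool counted, and whether it used strand, is not given in the sources used here. There were 0 columns of other samples.

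Groups came from the sample titles. Counts were filtered by edgeR's filterByExpr over the 4 groups (20612 genes kept), scaled by TMM and fitted with edgeR 4.0.16 in R 4.3.3 (quasi-likelihood, robust, 1 term per group, common dispersion 0.0518, 8 residual degrees of freedom). Tests were two-sided with Benjamini-Hochberg adjustment over all genes tested and a threshold of 0.05. CPM is the count scaled to the library's total and TMM factor. The code was tested on simulated data. The 23 alternatives were other scalings (RLE, library totals), DESeq2 1.42.0, no filter, limma 3.58.1 on log2 TPM plus 1 or 0.1 or on log2 FPKM plus 1, a GC-content offset, a replicate block, only the compared groups (not for the interaction), each library left out, and both control 1 and palbociclib 3 left out. In each companion list and comparison, the genes open to naming were the 3 with the largest change past the threshold, provided that 1 of the groups averaged 5 CPM or more. Genes named within a count of those that rose, fell or lost a call, such as GRHL3, KRT13 and SOX4, could lie outside this rule. For TP73 and BCL11A, genes of like profile were sought among protein-coding genes at 5 CPM or more. The members and lists were chosen with earlier results of these data known. Tables and plots used Python 3.11.15 with pandas 2.3.3 and matplotlib 3.10.9. Totals between 21.7 M and 35.8 M counts limit precision for factors below 1 TPM, and intervals cover the spread between these libraries only. Some genes of the companion lists enter the counts but are not reported here by name.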

Additional observations from a re-analysis of the deposited data

Results flagged for a closer look

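PRDM1, among the squamous differentiation genes, was the one named gene whose interaction passed the threshold. The effect of BLU9931 differed between cells with and without palbociclib by -0.95 on the log2 scale (edgeR quasi-likelihood adjusted p = 0.0419), and PRDM1 averaged 24.5 CPM in control, 21.3 with BLU9931, 23.9 with palbociclib and 10.7 with the combination. The call was lost with any 1 BLU9931 library left out (adjusted p between 0.081 and 0.114). It was also lost without combination 1 (adjusted p = 0.0941), combination 2 (0.116), combination 3 (0.1), control 2 (0.11), control 3 (0.0924) or palbociclib 2 (0.103). With all libraries it was lost with the replicate block (-0.95, edgeR adjusted p = 0.111) and in the 3 limma settings (-0.95 to -0.71, limma adjusted p between 0.0785 and 0.0918).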

How the results depend on the processing

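Among 1096 log2 changes of single factors refitted under alternatives, 986 kept their direction and side of the threshold, 12 fell below it, 33 rose past it, 65 changed sign where neither value passed, and 0 reversed. The number of factors past the threshold moved as follows. For BLU9931 against control (0) it was 1 with control 1 and palbociclib 3 both left out. For palbociclib against control (0) it was 3 with DESeq2, 4 with the GC-content offset, 2 with both libraries left out, and 1 with library totals and with each of the 3 limma settings; leaving out single libraries gave 0 to 2. For the combination against control (2) it was 4 with the GC-content offset and 4 with both libraries left out, and 3 with library totals and each limma setting (SOX2 added) and with no filter (TP63 added); single libraries gave 2 each time. For the combination against palbociclib (1) it was 0 with each limma setting and 0 with only the compared groups; single libraries gave 0 to 1. For the combination against BLU9931 (2) it was 3 (PITX1 added) with the GC-content offset, with both libraries left out and with only the compared groups; single libraries gave 1 to 2. For the interaction (0) it was 1 with DESeq2, 1 with the GC-content offset and 2 with both libraries left out; single libraries gave 0 to 1. The cause of these shifts was not tested, and a fit with fewer libraries also has fewer residual degrees of freedom. The replicate block changed none of these counts, giving 0, 0, 2, 1, 2 and 0 in the order of the comparisons above. The labels do not say whether libraries of the same number are paired. Deviations from the group mean correlated at -0.58 to 0.332 between same-numbered libraries and at -0.458 to 0.658 between others. These values cannot settle pairing, because the GC deviation of control 1 and palbociclib 3 enters them. Over all genes, those past the threshold in BLU9931 against control went from 37 to between 1 and 715. Library totals moved the median of all genes in the combination against control from 0.03 to 0.11. Of 685 counts for companion lists, 571 stayed within 1.5 times and 114 did not. Depth limits TP63, GRHL2, ZNF750 and TFAP2C, which had at most 14 counts in a library.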
